A study of Mus musculus with 48 samples.

Results

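The 10 oxidative stress genes of the NRF2 response examined here were Nfe2l2, Keap1, Hmox1, Nqo1, Gclc, Gclm, Slc7a11, Txnrd1, Prdx1 and Srxn1. They were taken by name from the 55450 genes of the deposited count table, and all 10 passed the filter on low counts in both experiments. RNA was sequenced from 48 individual subcutaneous B16-D5 tumors, a mouse melanoma line, with 3 tumors from separate mice in each of 16 conditions. The study asked how host iNOS, the inducible nitric oxide synthase encoded by Nos2, bears on the response to antibody against PD-1. Hosts were C57BL/6J (WT) or iNOS KO mice, obtained at 4 weeks of age and kept for 2 weeks, and the same tumor line was implanted in both 8 days before therapy, so that the genotype was that of the host and not of the tumor cells. Mice were left untreated or received 250 µg of IgG or anti-PD-1 in 200 µL of PBS on days 0 and 3. Experiment 1 held 30 tumors from WT mice: untreated at 0 h, and untreated, IgG or anti-PD-1 at 6 h, day 1 and day 3. Tumors of 6 h and day 1 were taken before the second dose, and the study does not state whether those of day 3 were. Experiment 2 held 18 tumors at day 7, untreated, IgG or anti-PD-1, from WT mice and from mice labelled iNOS KO. Levels are given as CPM, read counts scaled to a common library size within each experiment, and no level was compared between experiments by a test.

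NRF2, encoded by Nfe2l2, is the transcription factor that switches on genes against oxidants and electrophiles. In unstressed cells KEAP1 binds it and hands it to a CUL3 and RBX1 ubiquitin ligase for destruction, and when cysteines of KEAP1 are modified NRF2 accumulates, pairs with a small MAF protein and binds antioxidant response elements. Because this switch works mainly on the protein, the mRNA of Nfe2l2 need not move when the pathway does, and its targets are the usual transcript readout. The targets measured here serve heme breakdown (Hmox1), quinone reduction (Nqo1), glutathione supply (Gclc, Gclm, Slc7a11) and the thioredoxin system (Txnrd1, Prdx1, Srxn1), and several of them also answer to other factors, such as BACH1 for Hmox1 and ATF4 for Slc7a11.

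The response element is known by the core TGACNNNGC, which was searched on both strands of RefSeq promoter windows of 300 bases (250 before to 50 after an annotated start, GRCm38.p6). The core occurred in 12.4% of all 32851 windows and in 5 of the 10 windows listed for 8 of the members. Of the members, Hmox1 and Gclc had no entry. The 4 matches that lay upstream of a start are shown because they belong to members whose levels are described here, each read 5′ to 3′ on the minus strand with the core in capitals.
Nfe2l2, chr2:75704885-75704913, 240 bases before the start: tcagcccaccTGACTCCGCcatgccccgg
Gclm, chr3:122245413-122245441, 134 bases before the start: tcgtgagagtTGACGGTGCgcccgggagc
Prdx1, chr4:116685456-116685484, 133 bases before the start: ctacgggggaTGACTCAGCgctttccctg
Txnrd1, chr10:82859104-82859132, 92 bases before the second of its listed starts: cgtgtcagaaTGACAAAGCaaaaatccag
The core of Srxn1, TGACCTAGC, lay 29 bases after its start, and no match was present in the windows of Nqo1, Slc7a11 and Keap1. A match is a description of the letters and not evidence of binding.

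Some facts of the whole series touch the members. Total counts ran from 25574203 to 47687872 per tumor in experiment 1 and from 11625862 to 40959309 in experiment 2. Reads assigned to 1502 receptor genes of smell, pheromone and taste sensing, which work mainly in sensory tissue, served as a gauge of background reads, and 3 libraries of experiment 2 stood apart: WT anti-PD-1 replicate 3 (3709.92 CPM), WT anti-PD-1 replicate 4 (1304.03 CPM) and iNOS KO untreated replicate 1 (915.86 CPM). They were also the 3 shallowest, at 11625862, 18797177 and 23267834 counts. Groups came from the sample titles, since the treatment field matched the title in 14 of 48 samples and the genotype field read WT in all 48, including the 9 whose titles read KO. Nos2 in the tumors labelled iNOS KO (1.15 to 5.92 CPM) overlapped that in WT tumors of that experiment (1.395 to 7.28 CPM). Its mean was higher in iNOS KO than WT when untreated (3.87 against 2.74 CPM) and after IgG (4.74 against 2.56 CPM). After anti-PD-1 it was lower (2.62 against 4.75 CPM). The part of Nos2 deleted is not given in the sources used here, so that a gene-level count need not show the deletion, and the genotype rests on the titles. All 8 melanoma markers were detected in all 48 libraries, with sums of 9396 to 20660 CPM. In bulk tumor RNA, fewer cells of a type and less RNA per cell cannot be told apart.

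Across the members, transcript abundance spanned about 3 orders of magnitude on a per-length scale. In experiment 1 the order of the medians, in CPM per kb of exonic sequence, was Prdx1 (74.3), Hmox1 (47.96), Nfe2l2 (47.3), Txnrd1 (43.5), Keap1 (11.4), Gclm (10.5), Srxn1 (9.08), Gclc (8.94), Nqo1 (0.9795) and Slc7a11 (0.0681). The order was clear only between some neighbours. Txnrd1 exceeded Keap1, Gclc exceeded Nqo1, and Nqo1 exceeded Slc7a11 in 30 of 30 tumors. By contrast Hmox1 exceeded Nfe2l2 in 14 of 30, so the ranks of those genes were not separable, and Srxn1 exceeded Gclc in 18 of 30. In experiment 2 the medians ran in nearly the same order, from 91.1 CPM per kb for Prdx1 to 0.0683 for Slc7a11, with Gclc (9.27) ahead of Srxn1 (8.85) in 12 of 18 tumors. Thus the peroxide-reducing and heme-degrading enzymes and NRF2 itself were among the abundant members, while the quinone reductase and the cystine carrier were scarcely present.

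**Figure D1:**
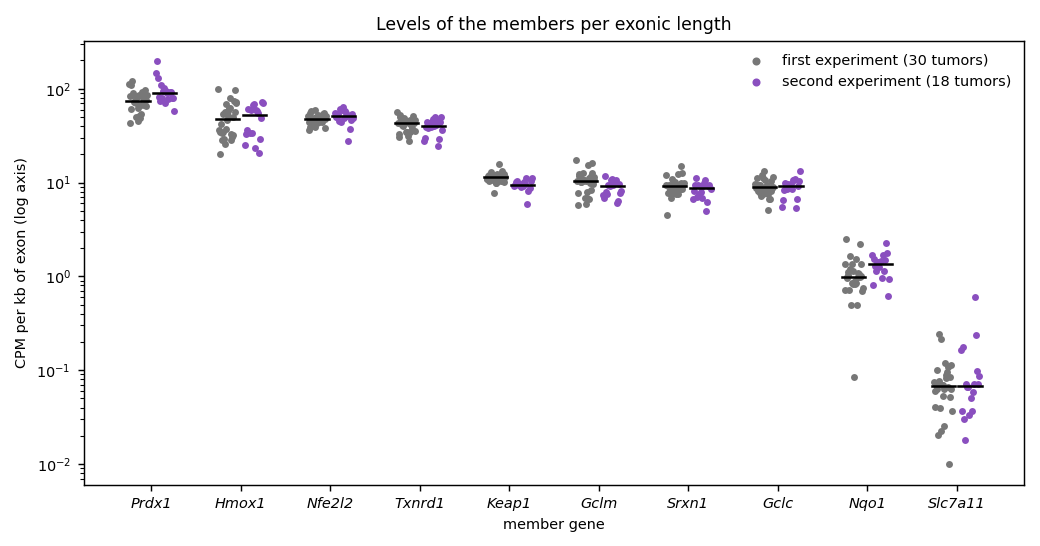
Levels of the 10 NRF2 response genes in CPM per kb of exonic sequence (log axis), with 1 dot per tumor in each experiment. Prdx1, Hmox1, Nfe2l2 and Txnrd1 lie highest and Slc7a11 lowest, and the 2 values of 0 (1 tumor for Nqo1 and 1 for Slc7a11) cannot be drawn on the log axis.

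No member passed the threshold in any of the 26 comparisons between conditions (edgeR quasi-likelihood test, Benjamini-Hochberg adjusted p under 0.05 over all genes tested). In 23 of those comparisons no gene at all passed (0%), and in the others the share of genes called was 0.587% (untreated, iNOS KO minus WT), 0.188% (IgG minus untreated, iNOS KO) and 0.0422% (anti-PD-1 minus untreated, iNOS KO). At an unadjusted p under 0.05, 8 of 160 member tests of experiment 1 passed (5%), against 4.84% of all gene tests, and 16 of 100 member tests of experiment 2 (16%), against 15.3% of all gene tests. The members thus reached that level about as often as genes in general. DESeq2, the tool the study used, called 0 members in experiment 1, where it called 0.00203 to 1.12% of genes. In experiment 2 it called 1 of 10 members in each of 5 comparisons: Prdx1 where it called 4.15% of genes (untreated, iNOS KO minus WT), 3.41% (anti-PD-1 minus untreated, iNOS KO) and 3.07% (IgG minus untreated, iNOS KO), and Slc7a11 where it called 12.2% (anti-PD-1, iNOS KO minus WT) and 11% (anti-PD-1 minus untreated, WT), so that 1 of 10 was near the share of all genes in the last 2. In the test for a difference among any of the 6 conditions of experiment 2, Prdx1 alone of the members passed (adjusted p = 0.0317), where 1.66% of genes did, and Slc7a11 followed at an adjusted p of 0.0929. Among the 10 conditions of experiment 1 no gene passed (0%), and the smallest unadjusted p of a member was 0.0852, for Hmox1.

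**Figure D2:**
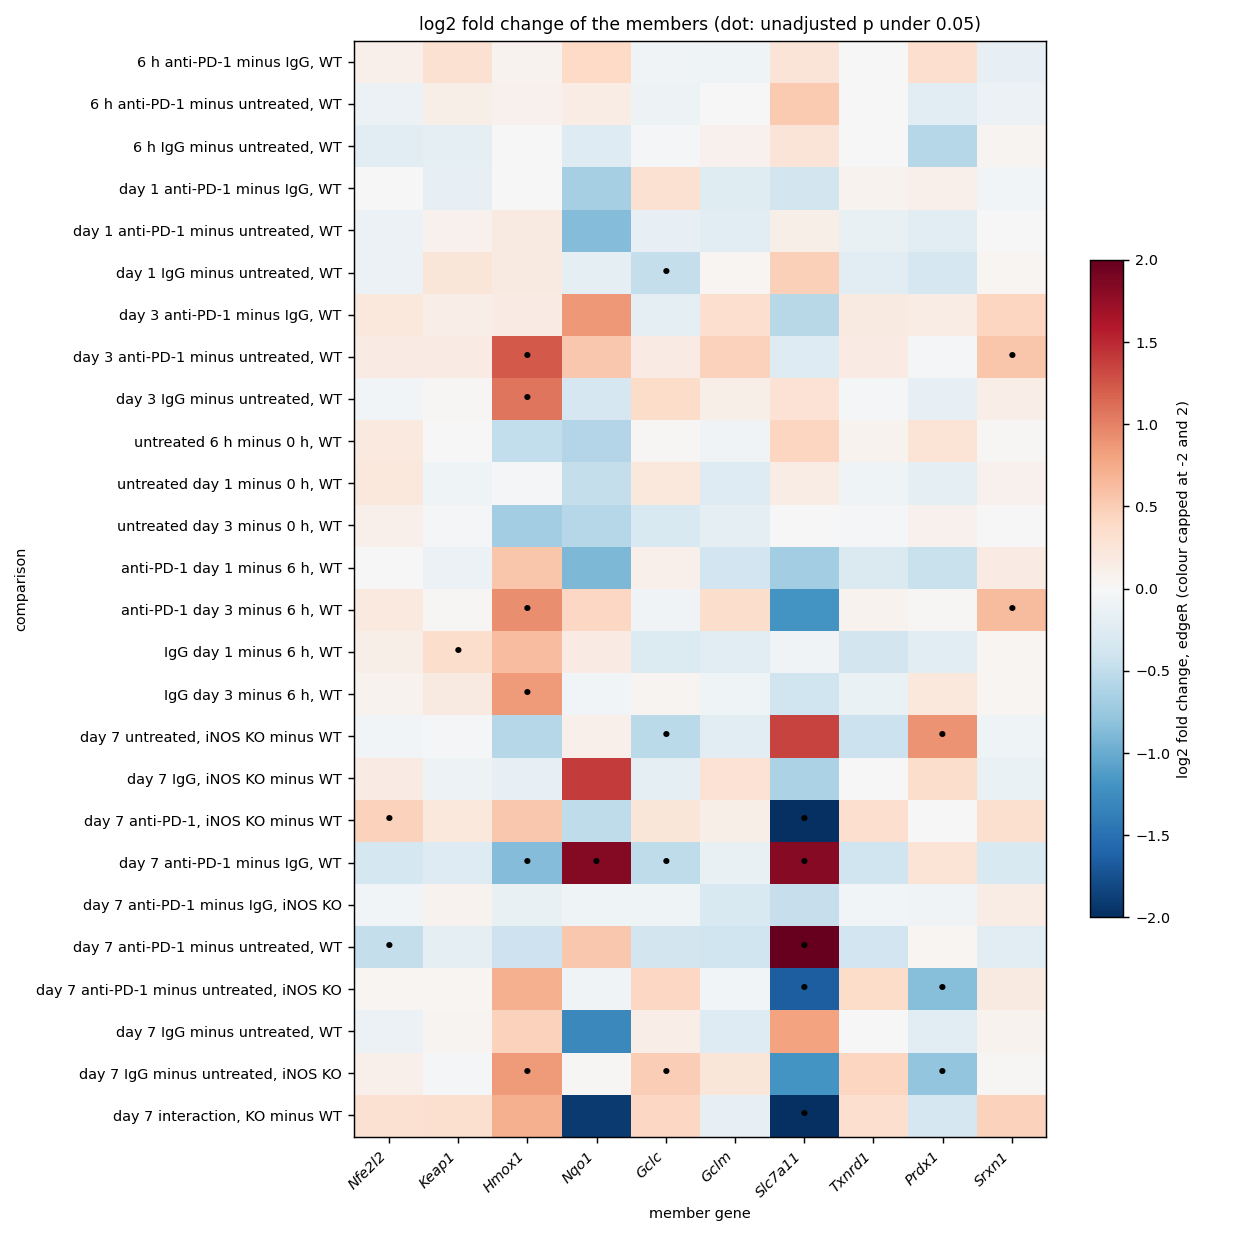
Log2 fold changes of the 10 genes (columns) in the comparisons between conditions (rows), with colour capped at -2 and 2 and a dot where the unadjusted p was under 0.05. Most cells are pale, and the deepest colours are in the day 7 rows, for Slc7a11 and Nqo1, the members with the lowest levels.

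The regulators were the steadiest members. Nfe2l2 (ENSMUSG00000015839.6, mm10 chr2:75675513-75704641, minus strand) ranged from 137 to 225 CPM over the 30 tumors of experiment 1, with a coefficient of variation of 11.98%. Keap1, its inhibitor (ENSMUSG00000003308.15, chr9:21229730-21239361, minus strand), ranged from 36.2 to 74.4 CPM, with a coefficient of variation of 12.03%. Neither changed with treatment by the test. At 6 h, the first time after dosing, Keap1 had the smallest p of the members for anti-PD-1 minus IgG, with 61.0, 54.6 and 56.1 CPM after anti-PD-1 and 53.6, 49.9 and 36.2 CPM after IgG (log2 fold change 0.30, SE 0.15, adjusted p = 0.967). The low IgG tumor, replicate 6, was also the lowest of the experiment for Keap1. From 6 h to day 1 of IgG, Keap1 differed by 0.35 on the log2 scale (SE 0.15, adjusted p = 0.464), with 1 high tumor of 74.4 CPM beside 48.2 and 55.5 CPM at day 1. For untreated tumors, Nfe2l2 had the smallest p of the members at 6 h against 0 h (log2 fold change 0.20, SE 0.16, adjusted p = 0.863) and at day 1 against 0 h (0.20, SE 0.16, adjusted p = 0.887). Its 0 h values of 196, 169 and 137 CPM overlapped those of both later times. Levels and differences of the 8 partners of NRF2 and KEAP1 (Maff, Mafg, Mafk, Bach1, Cul3, Rbx1, Sqstm1 and Nfe2l1) showed 0 calls in the 16 comparisons of experiment 1, and 0 of the 8 reached an unadjusted p under 0.05 in its test across conditions.

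In experiment 2 the regulators were again steady outside the libraries rich in receptor counts. Nfe2l2 ranged from 106 to 240 CPM and Keap1 from 27.7 to 52.7 CPM, and the lowest value of both was in WT anti-PD-1 replicate 3. For Nfe2l2, WT anti-PD-1 tumors held 196, 106 and 141 CPM, against 187, 220 and 208 CPM in untreated WT tumors and 204, 173 and 232 CPM in anti-PD-1 treated iNOS KO tumors. The low values were those of replicates 3 and 4. In the same 3 WT anti-PD-1 tumors Keap1 was 52.7, 27.7 and 37.95 CPM, again low in replicates 3 and 4. Of the 10 members, 7 had their lowest value of experiment 2 in replicate 3, and 2 (Nqo1 and Slc7a11) had their highest there. Whether the receptor background of these libraries took part in that was not tested.

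**Figure D3:**
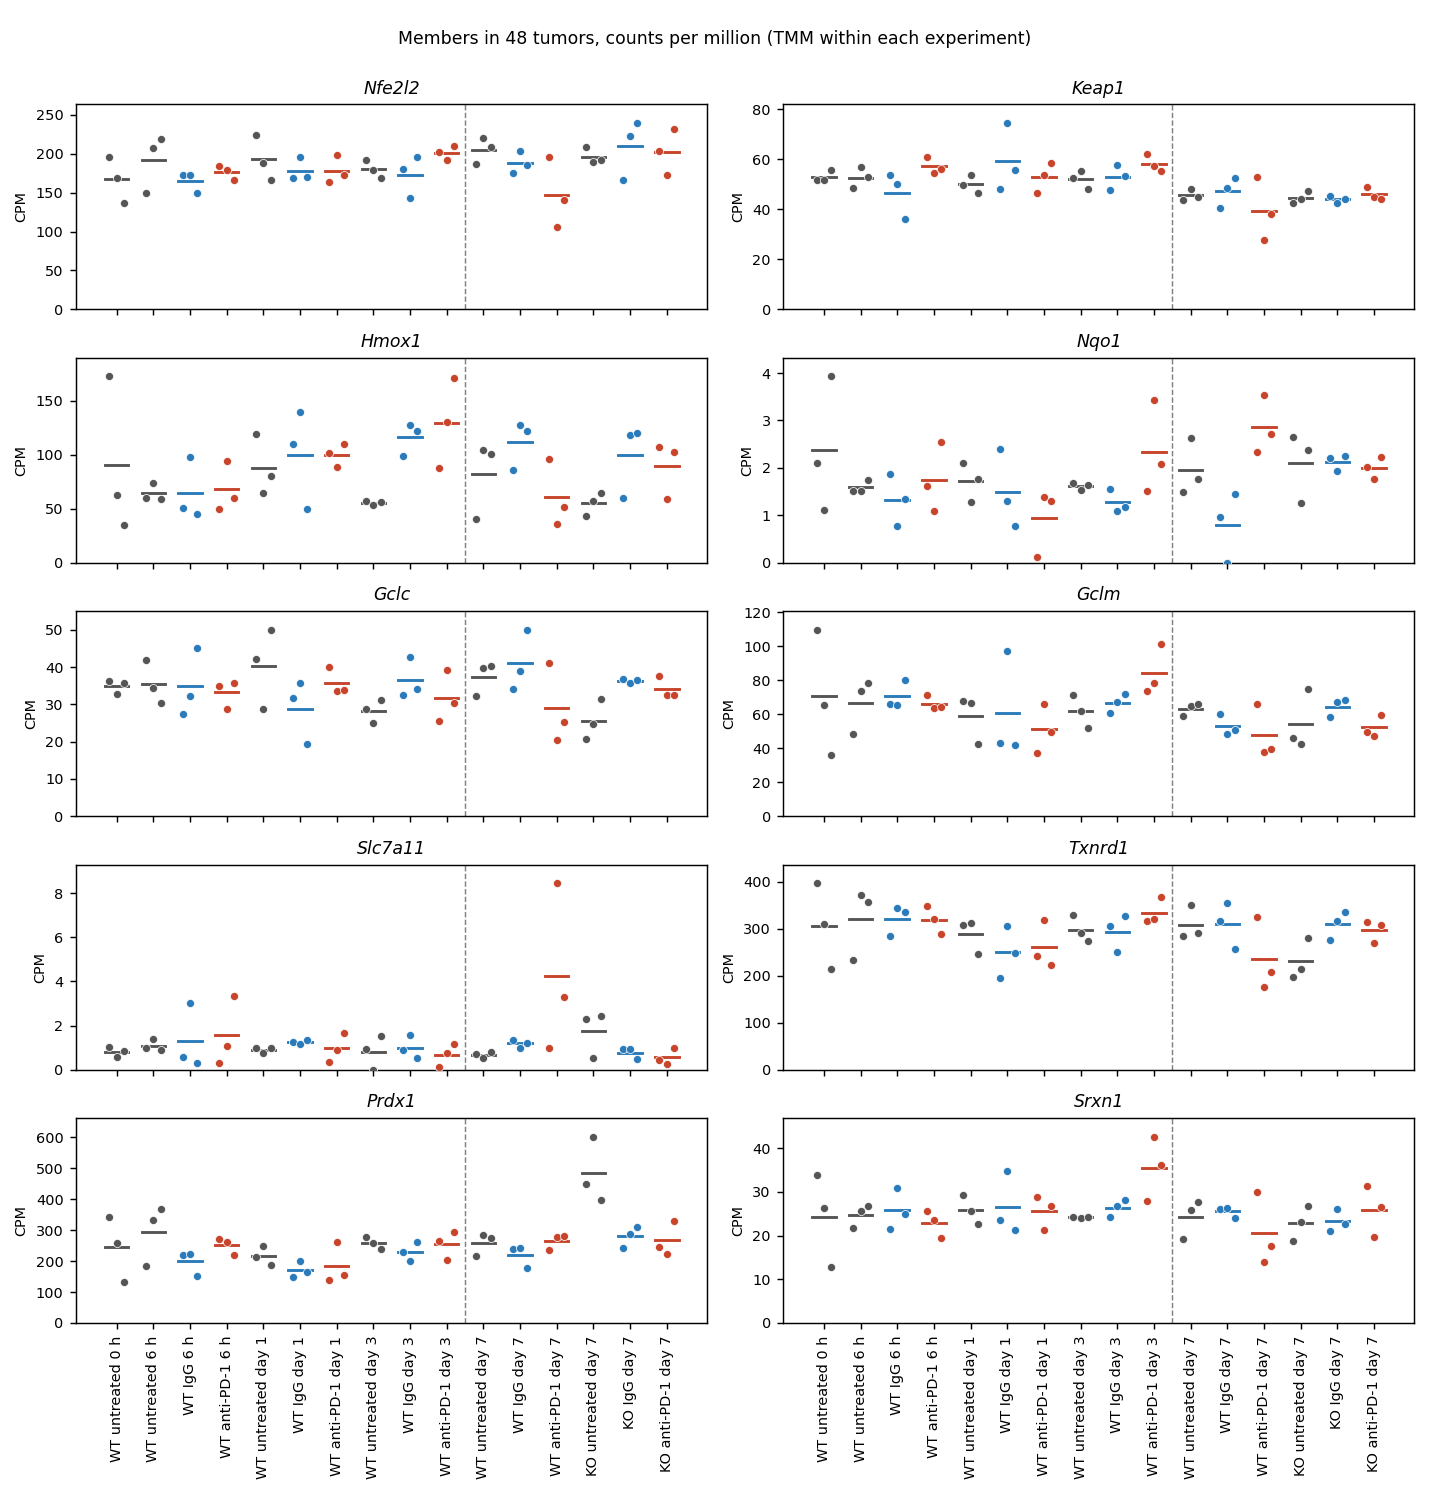
CPM of the 10 genes in every tumor by condition, with 1 dot per tumor, a bar at the mean, grey for untreated, blue for IgG and red for anti-PD-1, and a dashed line between the experiments. Keap1 and Nfe2l2 are nearly flat, Hmox1 is spread widely within conditions, and Prdx1 stands high in untreated iNOS KO tumors of day 7.

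Hmox1, the inducible heme oxygenase that splits heme into iron, carbon monoxide and biliverdin (ENSMUSG00000005413.8, chr8:75093621-75100589, plus strand), was the most variable of the abundant members. It ranged from 35.2 to 173 CPM in experiment 1 (coefficient of variation 42.2%), and both extremes were untreated 0 h tumors, at 173, 62.9 and 35.2 CPM. At day 3, untreated tumors held 57.2, 53.4 and 55.9 CPM (55.5 ± 1.97, SD, n = 3). Anti-PD-1 treated tumors held 87.4, 131 and 171 CPM (129.8 ± 41.9, SD, n = 3), and IgG treated tumors held 99.1, 128 and 122 CPM (116.4 ± 15.3, SD, n = 3). All 6 antibody-treated tumors lay above all 3 untreated ones, and the antibody arms overlapped. Against the same untreated tumors the log2 fold change was 1.23 for anti-PD-1 (SE 0.41, unadjusted p = 0.00657, adjusted p = 1 by edgeR) and 1.07 for IgG (SE 0.41, unadjusted p = 0.0157, adjusted p = 1 by edgeR). Neither passed the threshold. Those comparisons share the untreated tumors, which were unusually alike for this gene.

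Srxn1, the sulfiredoxin that repairs over-oxidized peroxiredoxins (ENSMUSG00000032802.8, chr2:152105516-152111376, plus strand), showed a like order at day 3. Untreated tumors held 24.21, 24.04 and 24.20 CPM, IgG tumors 24.3, 26.8 and 28.1 CPM, and anti-PD-1 tumors 27.8, 42.6 and 36.1 CPM. The untreated values were nearly the same in all 3 tumors and lay below every treated value. For anti-PD-1 minus IgG, Srxn1 had the smallest p of the members (log2 fold change 0.43, SE 0.25, adjusted p = 1), and the arms overlapped. Counting all members at day 3, 4 of 10 (Nfe2l2, Hmox1, Gclm and Srxn1) lay wholly above untreated after anti-PD-1, where the values of 6.95% of genes did not overlap, and 3 of 10 (Hmox1, Gclc and Srxn1) after IgG, where 11.2% of genes did not overlap. The median log2 fold change of the members was 0.16 and 0.07, against -0.02 and -0.03 over all genes. Over genes with a mean of at least 1 CPM it was 0.03 and -0.01.

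Summed levels of host cell markers also varied between the day 3 tumors, though no single marker passed the threshold. The summed level of 10 macrophage markers was 302, 568 and 490 CPM in untreated tumors, 766, 836 and 797 CPM after IgG and 560, 1072 and 517 CPM after anti-PD-1. All 10 macrophage markers were higher in mean after IgG (4 at an unadjusted p under 0.05, 0 called) and 9 of 10 after anti-PD-1 (1 at an unadjusted p under 0.05, 0 called). Over all genes, 2.64% and 2.63% reached an unadjusted p under 0.05 in the same comparisons. The IgG tumors lay wholly above untreated for this sum, while the anti-PD-1 tumors overlapped them. The sum of 5 fibroblast markers was 830, 2725 and 2797 CPM in untreated tumors, 4031, 3801 and 4091 CPM after IgG and 2166, 7395 and 2283 CPM after anti-PD-1. Of these 5 markers, 0 reached an unadjusted p under 0.05 against untreated tumors in either arm. Of 5 skeletal muscle markers, 2 reached it after anti-PD-1 and 0 after IgG. None of the fibroblast markers was at 0 in any library, and of the macrophage markers Marco was at 0 in 1 library of each experiment. The part of these cells in the levels of Hmox1 and Srxn1 was not tested.

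**Figure D4:**
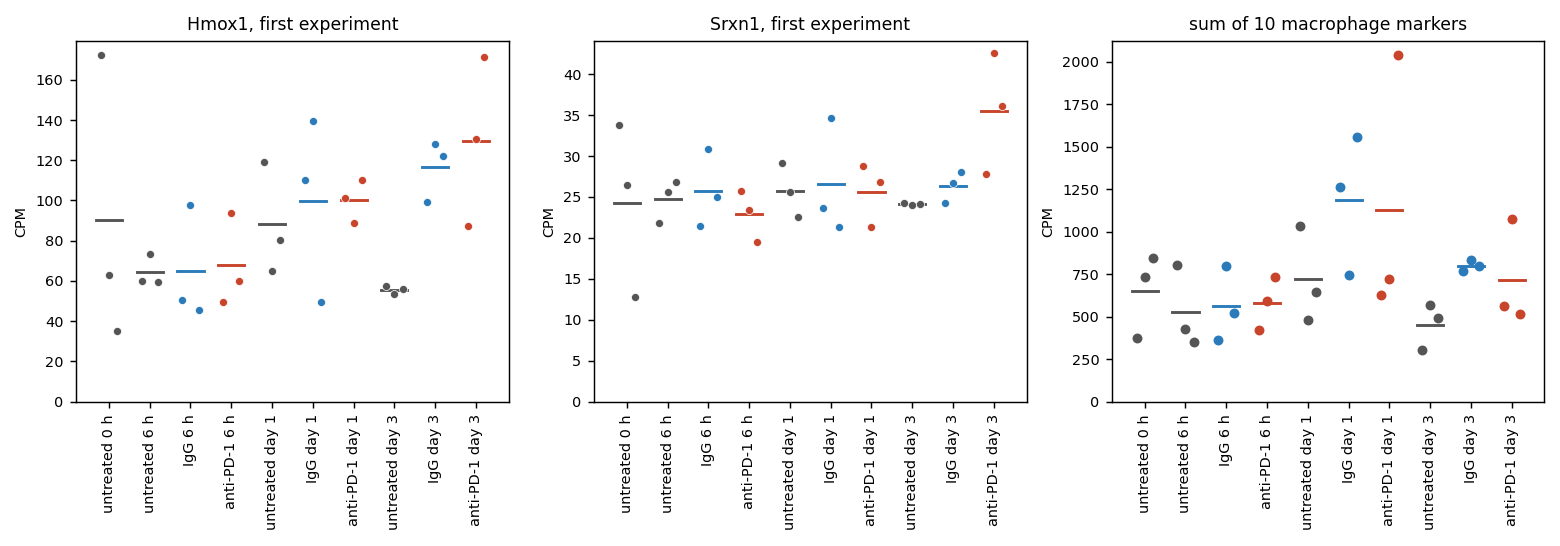
Hmox1, Srxn1 and the sum of 10 macrophage markers in CPM over time in experiment 1, with 1 dot per tumor and colours for untreated, IgG and anti-PD-1. At day 3 the 6 antibody-treated tumors lie above the 3 untreated tumors for Hmox1, while the macrophage sum of the anti-PD-1 tumors overlaps that of untreated tumors.

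Within each antibody arm no member passed the threshold over time. Srxn1 had the smallest p of the members from 6 h to day 3 of anti-PD-1, from 25.7, 23.5 and 19.5 CPM to the day 3 values above (log2 fold change 0.63, SE 0.25, adjusted p = 1). In that comparison 3 of 10 members (Nfe2l2, Gclm and Srxn1) lay wholly above their 6 h values, where 9.19% of genes did not overlap. From 6 h to day 3 of IgG, Hmox1 went from 50.7, 97.8 and 45.6 CPM to 99.1, 128 and 122 CPM (0.85, SE 0.41, adjusted p = 0.935). For untreated tumors the day 3 minus 0 h difference of Hmox1 was -0.70 (SE 0.41, adjusted p = 0.720). That difference rested on 1 tumor: without 0 h replicate 1 it was 0.17. At 0 h, replicate 3 was the lowest of the experiment for 5 of the 10 members, and it held 3939 CPM of keratinocyte markers and 5024 CPM of skeletal muscle markers. Replicate 1 of the same condition was the highest for 3 members, with 16.5 and 655 CPM of those markers. The part of skin and muscle RNA in the members' levels there was not tested.

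The glutathione genes feed the making of the tripeptide that scavenges electrophiles. Gclc (ENSMUSG00000032350.9, chr9:77754535-77794485, plus strand) encodes the catalytic and Gclm (ENSMUSG00000028124.15, chr3:122245557-122270732, plus strand) the modifier subunit of glutamate-cysteine ligase, its rate-limiting enzyme. In experiment 1 Gclc ranged from 19.4 to 49.8 CPM and Gclm from 36.1 to 109.7 CPM. At day 1 Gclc had the smallest p of the members for IgG minus untreated, with 31.6, 35.6 and 19.4 CPM against 42.3, 28.6 and 49.8 CPM (log2 fold change -0.48, SE 0.22, adjusted p = 0.859), and for anti-PD-1 minus IgG (0.31, SE 0.22, adjusted p = 1). The low tumor of the IgG arm, replicate 6, served in both comparisons, and the groups overlapped. Without it the anti-PD-1 minus IgG difference was 0.06. Gclm was high in anti-PD-1 tumors at day 3 (73.4, 78.6 and 101 CPM) relative to untreated (71.1, 61.95 and 51.9 CPM) with a narrow gap between the arms.

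Slc7a11, the light chain of the cystine and glutamate exchanger (ENSMUSG00000027737.10, chr3:49892526-50443614, minus strand), was nearly silent, at 0 to 3.34 CPM in experiment 1. It had 0 counts in day 3 untreated replicate 2, which allows up to 0.0762 CPM by counting error alone. A transcript of this gene also carries 373 bases that match Tuba1b at 96.2% identity, and 9 genes or pseudogenes share such a stretch of at least 200 bases at 95% identity. Its counts are therefore uncertain, and the part of reads from these copies was not tested. Gclm likewise shares 287 bases at 97.9% identity with Ppia, and 15 such copies were found.

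The thioredoxin arm in experiment 1 was led by Txnrd1, the cytosolic thioredoxin reductase (ENSMUSG00000020250.10, chr10:82833951-82897712, plus strand, 194 to 396 CPM), and Prdx1, an abundant peroxiredoxin that destroys hydrogen peroxide (ENSMUSG00000028691.12, chr4:116685544-116700822, plus strand, 132 to 368 CPM). At 6 h Prdx1 had the smallest p of the members against untreated tumors, which held 183, 334 and 368 CPM. After IgG it was 220, 224 and 153 CPM (log2 fold change -0.57, SE 0.28, adjusted p = 0.760) and after anti-PD-1 273, 263 and 219 CPM (-0.23, SE 0.28, adjusted p = 1). Both arms overlapped the untreated tumors. The anti-PD-1 difference was -0.03 without untreated replicate 4 and -0.43 without untreated replicate 1. From 6 h to day 1 of anti-PD-1 the difference of Prdx1 was -0.44 (SE 0.28, adjusted p = 0.691), with 139, 262 and 154 CPM at day 1.

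Nqo1, the quinone reductase often used as a readout of NRF2 (ENSMUSG00000003849.8, chr8:107388225-107403206, minus strand), stayed between 0.130 and 3.93 CPM in experiment 1. For anti-PD-1 minus untreated at day 1 it had the smallest p of the members (log2 fold change -0.86, SE 0.61, adjusted p = 1). That value turned on 1 anti-PD-1 tumor of 0.130 CPM (4 counts), beside 1.38 and 1.302 CPM in the others and 2.10, 1.28 and 1.76 CPM in untreated tumors, and without it the difference was -0.38.

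Between untreated tumors of the host genotypes at day 7, Prdx1 had the smallest p of the members. Untreated iNOS KO tumors held 450.3, 602 and 398 CPM (483.6 ± 106.1, SD, n = 3), and untreated WT tumors 215, 285 and 275 CPM (258.4 ± 37.7, SD, n = 3). The groups did not overlap. The log2 fold change was 0.90 (SE 0.21, unadjusted p = 0.000311), and its adjusted p of 0.0516 by edgeR missed the threshold narrowly. Scaling by DESeq2 size factors gave 0.96 (adjusted p = 0.0270), the DESeq2 Wald test 0.96 (adjusted p = 0.000195) and subtraction of the background expected from receptor genes 0.97 (adjusted p = 0.0273). With receptor counts as a covariate the difference was 0.89 (adjusted p = 0.162), and with the 3 libraries apart left out it was 0.95 (adjusted p = 0.0530). Over the 14 alternatives the log2 fold change lay between 0.70 and 1.02, the lowest without untreated iNOS KO replicate 2, the highest of the group, at an adjusted p of 0.393. The background expected from receptor genes equalled 0.107 to 0.559% of the Prdx1 counts of the 3 libraries apart, and its 2 near-identical pseudogenes together held 0.176% of its counts.

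After antibody, Prdx1 of iNOS KO tumors overlapped that of WT tumors. It was 241, 289 and 309 CPM after IgG (279.7 ± 34.9, SD, n = 3) and 246, 224 and 331 CPM after anti-PD-1 (266.7 ± 56.5, SD, n = 3). Both arms lay wholly below the untreated iNOS KO tumors. The log2 fold change was -0.79 for IgG (SE 0.21, unadjusted p = 0.0011, adjusted p = 0.135 by edgeR) and -0.86 for anti-PD-1 (SE 0.21, unadjusted p = 0.000516, adjusted p = 0.134 by edgeR), both against the same 3 untreated tumors that entered the genotype comparison. In WT tumors Prdx1 was 240, 242 and 177 CPM after IgG and 237, 279 and 280.1 CPM after anti-PD-1, which overlapped untreated WT. The untreated iNOS KO group was therefore the only condition of the 6 to stand apart for this gene.

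**Figure D5:**
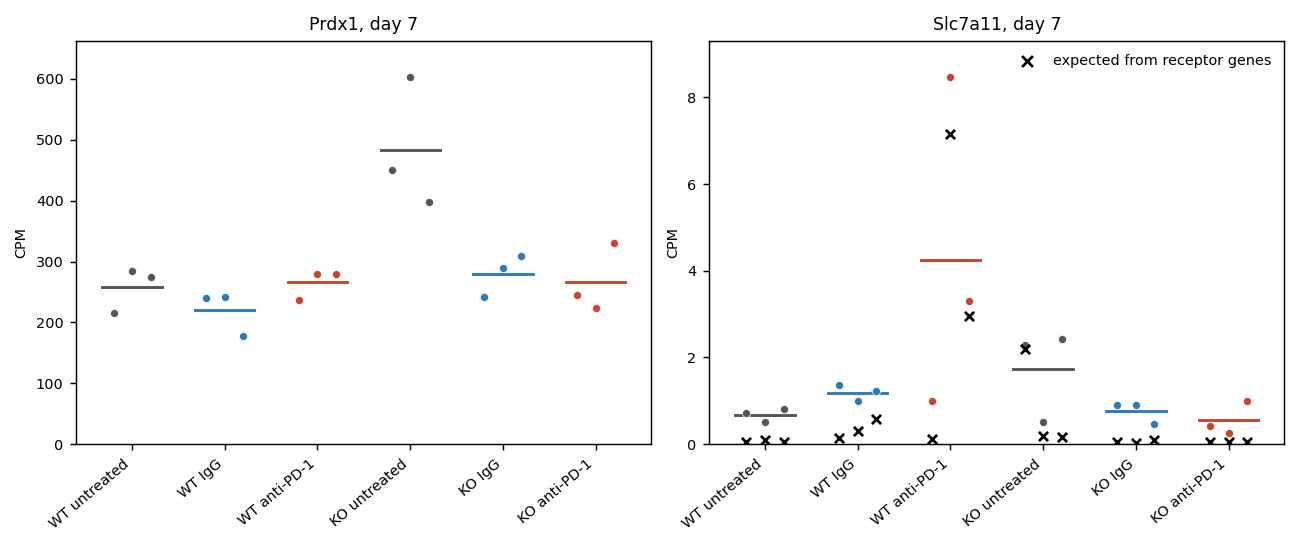
CPM of Prdx1 and Slc7a11 in every day 7 tumor by genotype and treatment, with crosses at the CPM expected from receptor gene background. The 3 untreated iNOS KO tumors lie above all other tumors for Prdx1, while the high Slc7a11 values of WT anti-PD-1 replicates 3 and 4 and of iNOS KO untreated replicate 1 lie close to their crosses.

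No other member lay wholly above WT in untreated iNOS KO tumors. Gclc was 20.8, 24.7 and 31.5 CPM against 32.1, 39.8 and 40.2 CPM in WT, and Txnrd1, the enzyme that keeps thioredoxin reduced, 197, 213 and 280.1 CPM against 285, 350.0 and 290 CPM. Both lay wholly below WT, with unadjusted p of 0.0219 and 0.0644 by edgeR. In all, 1 member was wholly above and 2 wholly below of 10, where 17.7% of genes did not overlap. The median over the members was -0.07 on the log2 scale, against 0.49 over all genes and -0.04 over the 15899 genes with a mean of at least 1 CPM. Against the untreated iNOS KO tumors, 1 member (Gclc) was wholly above and 1 (Prdx1) wholly below after anti-PD-1, where 14% of genes did not overlap, and 1 above and 1 below after IgG, where 17.6% did not. Gclc was 36.7, 35.6 and 36.55 CPM after IgG and 37.5, 32.5 and 32.5 CPM after anti-PD-1.

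Further genes of the pathway, from lists of its known parts, placed Prdx1 among others. Of 28 other NRF2 target genes, 2 were called higher and 0 lower in untreated iNOS KO than WT tumors, with a median of 0.03. Txn1, the thioredoxin that recharges Prdx1, was 113, 184 and 109 CPM against 43.4, 64.0 and 60.1 CPM (log2 fold change 1.28, SE 0.20, adjusted p = 0.00724 by edgeR). Mgst1, a microsomal glutathione transferase, was 18.6, 13.2 and 18.7 CPM against 4.32, 7.01 and 9.57 CPM (1.28, SE 0.29, adjusted p = 0.0479 by edgeR). Of the 8 partners, 1 was called higher, Rbx1, the RING subunit of the KEAP1 ligase and of other cullin ligases, at 118, 119.9 and 108 CPM against 57.9, 79.8 and 72.1 CPM (0.72, SE 0.16, adjusted p = 0.0406 by edgeR). Of 15 other antioxidant genes 0 were called, with Gpx4, the lipid peroxide reductase, nearest (1.05, SE 0.24, adjusted p = 0.0575 by edgeR). Counting higher and lower genes together, an unadjusted p under 0.05 was reached by 6 of those 15 and by 8 of the 28 other targets. The share of all genes, also in either direction, was 16.5%. Of all genes 180 were called higher and 1 lower. After IgG, Txn1 fell in iNOS KO tumors to 60.4, 68.3 and 58.6 CPM (-1.12, adjusted p = 0.0272 by edgeR), and after anti-PD-1 it was 71.4, 66.6 and 90.1 CPM. In the same 3 tumors Txn1 and Prdx1, which act in one reaction cycle, lay above untreated WT and above both antibody arms of iNOS KO. Txnrd1, the reductase of the cycle, did not. The order was not particular to that cycle, since Mgst1 and Rbx1 showed it too. In iNOS KO tumors Mgst1 was 11.1, 11.7 and 8.07 CPM after IgG and 8.56, 6.22 and 10.6 CPM after anti-PD-1. Rbx1 was 70.85, 72.8 and 85.4 CPM after IgG and 75.5, 77.8 and 102.4 CPM after anti-PD-1.

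Host cell markers differed between these groups too. The sum of 5 fibroblast markers was 636, 702 and 863 CPM in untreated iNOS KO tumors, 875, 3967 and 2246 CPM in untreated WT tumors, 2217, 3696 and 3369 CPM in iNOS KO tumors after IgG and 3895, 736 and 2424 CPM after anti-PD-1. Untreated iNOS KO tumors were wholly below untreated WT tumors, and 4 of the 5 markers reached an unadjusted p under 0.05 with 0 called, where 16.5% of all genes reached it. Of the adipocyte markers 4 of 5 and of the lymphocyte markers 4 of 7 also reached it, all higher in untreated iNOS KO tumors and with 0 called. The adipocyte sum was 59.8, 50.8 and 30.8 CPM against 13.7, 26.3 and 14.5 CPM, wholly above, and the lymphocyte sum 18.5, 10.7 and 20.9 CPM against 9.11, 9.40 and 10.96 CPM, overlapping. The sum of macrophage markers was 346, 285 and 429 CPM in untreated iNOS KO and 327, 770 and 445 CPM in untreated WT tumors, and that of melanoma markers 14240, 18560 and 18900 CPM against 15910, 16870 and 17750 CPM. Both sums overlapped. The part of tumor, stromal and immune cell content in Prdx1 was not tested.

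Slc7a11 showed the largest fold changes of day 7 and the weakest footing. WT anti-PD-1 tumors held 0.995, 8.46 and 3.30 CPM of it, against 0.711, 0.513 and 0.810 CPM in untreated WT tumors and 0.417, 0.249 and 0.985 CPM in anti-PD-1 treated iNOS KO tumors. WT anti-PD-1 tumors lay wholly above both. The log2 fold change was 2.64 for anti-PD-1 minus untreated in WT (SE 0.79, adjusted p = 0.142), -2.93 for iNOS KO minus WT after anti-PD-1 (SE 0.80, adjusted p = 0.123) and -2.29 for the interaction of genotype with anti-PD-1 minus IgG (SE 1.07, adjusted p = 0.670), which share the WT anti-PD-1 tumors. The background expected from receptor genes was 0.128, 7.15 and 2.96 CPM in those 3 tumors, from counts of 35, 129 and 69 against 4.51, 109 and 61.98 expected. In iNOS KO untreated replicate 1 it was 2.20 CPM of the 2.29 observed. For the 3 libraries apart, background thus equalled 84.5 to 96.2% of the Slc7a11 level. Without these libraries the same differences were 0.52, -0.81 and -0.20, but the WT anti-PD-1 arm was then 1 tumor, replicate 2, assumed to vary like the other groups. The estimate of background is rough: in 3 libraries of experiment 1 it exceeded the counts of Slc7a11, at 23.9 expected against 11 observed, 16.5 against 9 and 12.04 against 0. In iNOS KO untreated replicate 4, however, Slc7a11 was 2.44 CPM with 0.163 CPM of background expected.

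Nqo1 had the smallest p of the members at day 7 for iNOS KO minus WT after IgG and for IgG minus untreated in WT. It was 0.965, 0 and 1.44 CPM in WT tumors after IgG, where the 0 counts of replicate 2 allow up to 0.0990 CPM. It was 2.20, 1.93 and 2.24 CPM in iNOS KO tumors after IgG. The log2 fold change was 1.404 for iNOS KO minus WT (SE 0.79, adjusted p = 0.626) and, against untreated WT tumors of 1.501, 2.62 and 1.76 CPM, -1.29 for IgG minus untreated (SE 0.79, adjusted p = 0.566). Both rest on the same 3 WT IgG tumors, which lay below both groups they are compared with. Without replicate 2, the tumor at 0 counts, the differences were 0.86 and -0.74. After anti-PD-1, Nqo1 and Slc7a11 of iNOS KO tumors lay wholly below WT, that is 2 of 10 members, where 22.3% of genes did not overlap.

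Hmox1 at day 7 ranged from 35.9 to 128 CPM. In WT tumors it was 40.6, 104 and 101 CPM untreated, 86.3, 128 and 122 CPM after IgG and 96.5, 35.9 and 51.5 CPM after anti-PD-1. For anti-PD-1 minus IgG in WT it had the smallest p of the members (log2 fold change -0.87, SE 0.36, adjusted p = 0.305), and its low values were again replicates 3 and 4. The difference was -0.22 with the 3 libraries apart left out, when 1 WT anti-PD-1 tumor remained, and -1.37 without replicate 2. Macrophage markers summed to 892, 209 and 262 CPM in the 3 WT anti-PD-1 tumors and 496, 779 and 1923 CPM after IgG, and their part was not tested. In iNOS KO tumors Hmox1 was 43.6, 57.2 and 64.2 CPM untreated, 59.8, 118 and 121 CPM after IgG and 107, 59.3 and 103 CPM after anti-PD-1, all overlapping. For anti-PD-1 minus IgG in iNOS KO the smallest p was that of Gclm, at 49.8, 47.4 and 59.7 CPM against 58.2, 67.0 and 68.3 CPM (-0.30, SE 0.21, adjusted p = 1).

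WT anti-PD-1 replicate 2 decided how many members were called in the comparisons that use its group. Without it, only replicates 3 and 4, the 2 libraries richest in receptor counts, stood for the group. Then 7 members were called for iNOS KO minus WT after anti-PD-1 (Nfe2l2, Hmox1, Gclc, Txnrd1, Srxn1 and Keap1 higher by 0.53 to 1.08 on the log2 scale, and Slc7a11 at -3.33), where 13% of all genes were called. Likewise 5 members were called for anti-PD-1 minus untreated in WT (12% of genes) and 2 for anti-PD-1 minus IgG in WT (5.96% of genes). With all libraries, the median of the members in those 3 comparisons was 0.23, -0.30 and -0.28, against -0.91, 0.96 and 0.68 over all genes and 0.11, -0.08 and -0.07 over genes with a mean of at least 1 CPM. DESeq2 size factors moved the median of all genes in them by -0.11, 0.12 and 0.10.

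The members did not all vary together. For each member only its closest other member, by Pearson correlation of log2 CPM, was kept, so further pairs may be as alike. Over the 30 tumors of experiment 1, the highest of these correlations were 0.85 for Gclm with Txnrd1, 0.82 for Prdx1 with Txnrd1 and 0.74 for Hmox1 with Srxn1. Over the 18 tumors of experiment 2 they were 0.81 for Hmox1 with Gclc, 0.81 for Txnrd1 with Gclc and 0.80 for Srxn1 with Hmox1. There Prdx1 reached at most 0.16, with Nqo1, and Slc7a11 at most 0.13. Against the mean of the 10 standardized members, genes among the most alike in experiment 1 were Esd (r = 0.84), Sqstm1 (0.84), which encodes the KEAP1-binding adaptor p62, Ddost (0.84) and Copg1 (0.83). In experiment 2 they were Lgals9 (0.94), Lgals3bp (0.93), Rab5c (0.93), Max (0.92) and Me1 (0.92), the malic enzyme that supplies NADPH. These values describe tumors that share library depth and cell make-up, and the 3 libraries apart are among those of experiment 2.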

How the data were processed

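RNA from fresh tumors was made into strand-specific NuGEN libraries and sequenced by the authors, who trimmed adapters with cutadapt 1.8.1, aligned to mm10 with STAR 2.7.7a and estimated gene counts with RSEM 1.3.0 on GENCODE vM21, per the study's methods and the submitters' processing notes. The authors deposited whole-number counts per gene for 48 libraries, which were used as they are, and all 55450 identifiers matched vM21. The name of that table refers to another counter (FeatureCount) than RSEM. Which of them made the counts could not be settled from the values, so how reads shared between near-identical copies were assigned is not known.

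Separate models for the 2 experiments were made in edgeR 4.0.16 (limma 3.58.1, R 4.3.3): filterByExpr with a minimum count of 10 (26848 and 30837 genes kept), TMM scaling, 1 coefficient per condition, quasi-likelihood F-tests, and Benjamini-Hochberg adjustment over all genes tested. CPM used TMM-scaled totals, and likeness used log2 CPM with a prior count of 0.5 (1 of the genes most alike is not reported here). The time of 6 h (titles read D0) and of day 7 come from the series text and the study. Background was taken as receptor gene counts per exonic kb (5506.1 kb in all) times the exonic length of a gene. A floor of 3 counts stood for a count of 0 and covers counting error only. Copies were found with BLAST 2.17.0 among transcripts. DESeq2 1.42.0 was an alternative. All member values are given. Log2 fold changes with errors are given for the member of smallest p in each comparison, and for others named with their values. Code was tested on simulated data. The members and lists were chosen with earlier results of these data known. Of the ATF4 target list, Ddit3 was dropped because its symbol has 2 identifiers, and 0 of the 7 others and 0 of 10 hypoxia genes were called in any of the 26 comparisons.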

Additional observations from a re-analysis of the deposited data

Results flagged for a closer look

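The Nqo1 difference between host genotypes had opposite signs in the antibody arms of day 7, and neither difference passed the threshold. After IgG, every iNOS KO tumor (2.20, 1.93 and 2.24 CPM) lay above every WT tumor (0.965, 0 and 1.44 CPM), where 12.1% of genes did not overlap. The log2 fold change was 1.404 (SE 0.79, unadjusted p = 0.091, adjusted p = 0.626 by edgeR). After anti-PD-1, every iNOS KO tumor (2.01, 1.77 and 2.23 CPM) lay below every WT tumor (2.33, 3.54 and 2.72 CPM), where 22.3% of genes did not overlap. The log2 fold change was -0.51 (SE 0.77, unadjusted p = 0.514, adjusted p = 0.638 by edgeR). The test between the arms did not pass either (interaction -1.92, SE 1.102, unadjusted p = 0.0976, adjusted p = 0.689 by edgeR). The WT anti-PD-1 tumors at 3.54 and 2.72 CPM are the libraries richest in receptor counts, in which background equalled 22.5% and 12.1% of the Nqo1 level. The part of that background was not tested. Without the WT IgG tumor at 0 counts, the difference after IgG was 0.86.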

How the results depend on the processing

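The direction of the member with the smallest p was kept under every alternative run in 25 of the 26 comparisons. The exception was Hmox1 for untreated day 3 minus 0 h, which was -0.70 with all tumors and -1.05 to 0.17 with each replicate left out, the reversal being without WT 0 h replicate 1. No member was called in experiment 1 under any alternative between conditions, and without the filter on low counts 1 member varied across its conditions, where 2.85% of genes did.

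In experiment 2 the number of members called went from 0 to 1 in several comparisons. For untreated iNOS KO minus WT it was 1 with DESeq2 size factors, with no filter, with background subtracted (an alternative chosen after seeing the data), with the DESeq2 Wald test and with only the groups compared in the fit, and 0 to 1 with each replicate left out, where 0.795 to 4.15% of genes were called. It was 1 with no filter and with DESeq2 for iNOS KO minus WT after anti-PD-1 (0 to 7 with replicates left out, 5.52 and 12.2% of genes), for anti-PD-1 minus untreated in iNOS KO (2.84 and 3.41% of genes) and for IgG minus untreated in iNOS KO (2.66 and 3.07% of genes), the last also with only the groups compared (2.48%). It was 1 with no filter for anti-PD-1 minus IgG in WT (1.92% of genes, and 0 to 2 members with replicates left out) and 1 with DESeq2 for anti-PD-1 minus untreated in WT (11% of genes, and 0 to 5 members with replicates left out). The 7, 5 and 2 arose without WT anti-PD-1 replicate 2, where 13, 12 and 5.96% of genes were called. Of members varying across the conditions of experiment 2, 3 passed with no filter (14.4% of genes), 2 with the DESeq2 likelihood ratio test (16.8% of genes), 0 with the 3 libraries apart left out (0.928% of genes, chosen after seeing the data) and 0 to 4 with each library left out, the 4 without WT anti-PD-1 replicate 2 (18.2% of genes). Prdx1 missed the threshold there without iNOS KO untreated replicate 2 (adjusted p = 0.106), without WT anti-PD-1 replicate 4 (0.0926) and without the 3 libraries (0.0520).

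Replicate numbers did not pair the tumors: deviations of same-numbered tumors had a median correlation of -0.02 over 65 pairs in experiment 1 and -0.01 over 36 pairs in experiment 2. With the replicate block, 0 members varied across the conditions of experiment 2, where Prdx1 had an adjusted p of 0.0677, and no count of members called between 2 conditions changed. The cause of these changes was not tested.

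Nqo1 and Slc7a11 rested on as few as 0 counts in a library, so depth limits what can be said of them. A p that missed the threshold does not show that levels were alike.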
